A study of Mus musculus with 20 samples.

Results

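The genes for translation initiation factors (Eif) and translation elongation factors (Eef) were followed through mouse preimplantation development on the Affymetrix MOE430A microarray. The members were all probe sets that the array annotation assigns to a single gene whose symbol begins with Eif, Eef1 or Eef2. This rule found 118 of 22626 probe sets, which stand for 52 of 12393 genes. A probe set is a group of short probes for a transcript, and its intensity is a relative level that is not compared between probe sets. A filter on low intensity kept 109 of the probe sets and 50 of the genes for testing, and Eef1aknmt and Eef2kmt did not pass it. The study compared 5 groups of 4 arrays: mouse oocytes, 1-cell, 2-cell and 8-cell embryos, and blastocysts. For every group the labels give total RNA that went through 2 rounds of amplification by in vitro transcription. They name no strain, genotype, age, treatment or number of embryos, and they do not say whether the replicates were separate collections. The p-values therefore measure the spread between these arrays, which may be technical.

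Translation starts when eIF2 carries the initiator tRNA to the small ribosomal subunit, which also holds eIF3, eIF1 and eIF1A. The cap of the mRNA is bound by eIF4F, made of the cap-binding protein eIF4E, the scaffold eIF4G and the RNA helicase eIF4A. eIF5 and eIF5B complete the start, and eEF1 and eEF2 then deliver aminoacyl-tRNAs and move the ribosome along the message. The oocyte and the early embryo translate mRNA stored by the mother until the embryonic genome takes over, which in the mouse happens mainly at the 2-cell stage. Eif1a is known as a gene that the embryo switches on early.

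The stage labels were checked against marker genes. The summed intensity of 7 oocyte markers ranged from 24390 to 28260 on the oocyte arrays and from 159.1 to 211.7 on the blastocyst arrays, and that of 8 blastocyst markers from 201.4 to 288.3 and from 11000 to 13340. Krt8 and Krt18, with blastocyst means of 4372 and 5346, gave most of this last sum. Of the 8, Gata4 alone had a lower mean in blastocysts, 50.6, than in oocytes, 85.05. Gata6 read higher at the 8-cell stage, 1055, than in blastocysts, 630. The 3 measured 2-cell markers summed to 2295 to 3982 at the 2-cell stage and to at most 159.7 elsewhere. Cumulus or granulosa cell markers summed to at most 282.9 and sperm markers to at most 152.1 on any array. Oviduct or blood markers summed to 3174 on 1 8-cell array, through the oviduct gene Ovgp1, and to at most 821.1 on all others. All arrays had nearly the same trimmed mean, 150.05 to 150.08, so the values are relative to the total signal of each array. Probe sets for control transcripts added at hybridization read differently between stages, with a mean of 0.627 times their overall level on the oocyte arrays and 0.754 times on the blastocyst arrays, against 1.29 for 1-cell, 1.11 for 2-cell and 1.62 for 8-cell arrays. The 18S ribosomal RNA probe set read 143.2 to 261.4 in oocytes and 11006.5 to 15355.4 at the 1-cell stage. It read 481.7 to 744.9 on the 2-cell, 534.8 to 1127.7 on the 8-cell and 402.4 to 729.4 on the blastocyst arrays. The 1-cell arrays thus stood apart from all others in this measure. The ratio of 3′ to 5′ probe sets, a sign of how complete the RNA is, was 1.28 ± 0.47 for Gapdh at the 8-cell stage (SD, n = 4) and 4.70 to 5.81 by stage mean elsewhere. For actin it was 1.99 ± 0.33 in blastocysts and 3.67 to 4.74 at the other stages, so that the 8-cell arrays stood apart in one and the blastocyst arrays in the other. The part of these shifts in the results was not tested. On the deposited scale a value gives a share of the signal of its array, and the amount of a message per cell or embryo cannot be read from it.

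The members moved in both directions at each transition. A change is the later stage minus the earlier one on the scale log2(intensity + 12.15), with its standard error (SE), and it was called when limma's moderated test over all tested probe sets gave it an adjusted p (Benjamini-Hochberg) under 0.05. From oocyte to 1-cell stage 11 of 50 genes rose and 20 fell, or 22% and 40%, where 15.2% and 16.6% of all 10257 tested genes rose and fell. From the 1-cell to the 2-cell stage 23 rose and 13 fell (46% and 26%, against 22.0% and 22.7% of all genes). From the 2-cell to the 8-cell stage 28 rose and 6 fell (56% and 12%, against 22.2% and 25.7%). From the 8-cell stage to the blastocyst 5 rose and 17 fell (10% and 34%, against 20% and 26.4%). The median changes of the members were -0.13, 0.30, 0.67 and -0.26 at the successive transitions, and those of all genes were 0.09, -0.07, 0.04 and -0.22. Between the end points, oocyte and blastocyst, 26 members were higher in the blastocyst and 14 were lower (52% and 28%, against 26.2% and 33.6%), with a median of 0.62 against -0.20.

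How many of these calls depended on the scale was determined with 3 other scalings: quantile normalization, centring on the array median, and scaling to the hybridization controls. Under all 4 scalings 0 of the 11 rises and 20 of the 20 falls from oocyte to 1-cell stage were called, which are 0% and 40% of the 50 genes, against 0.166% and 15.5% of all genes. Of all rises and falls called at this step, 1.09% and 93.3% held under all 4 scalings. From the 1-cell to the 2-cell stage 21 rises and 7 falls held (42% and 14%, against 19.3% and 12.3% of all genes). From the 2-cell to the 8-cell stage 15 rises and 6 falls held (30% and 12%, against 7.79% and 24.2%). From the 8-cell stage to the blastocyst 5 rises and 1 fall held (10% and 2%, against 18.6% and 2.01%). Between oocyte and blastocyst it was 21 of 26 rises and 13 of 14 falls (42% and 26%, against 19.2% and 31.1%). Scaling to the controls moved the median change of all genes by -0.85, 0.17, -0.44 and 0.88 at the 4 transitions. With it the share of rises among all called genes went from 47.8% to 0.34%, from 49.2% to 62.6%, from 46.3% to 19.7% and from 43.1% to 95.8%, and from 43.8% to 33.8% between oocyte and blastocyst. With centring on the array median, the change of the median gene shifted by -0.11 from the 1-cell to the 2-cell stage and by 0.22 from the 8-cell stage to the blastocyst. In the latter comparison it took the share of rises from 43.1% to 62.6%. Quantile normalization moved that median by 0.10. Directions below are on the deposited scale, and genes called under all 4 scalings are named as such.

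**Figure D1:**
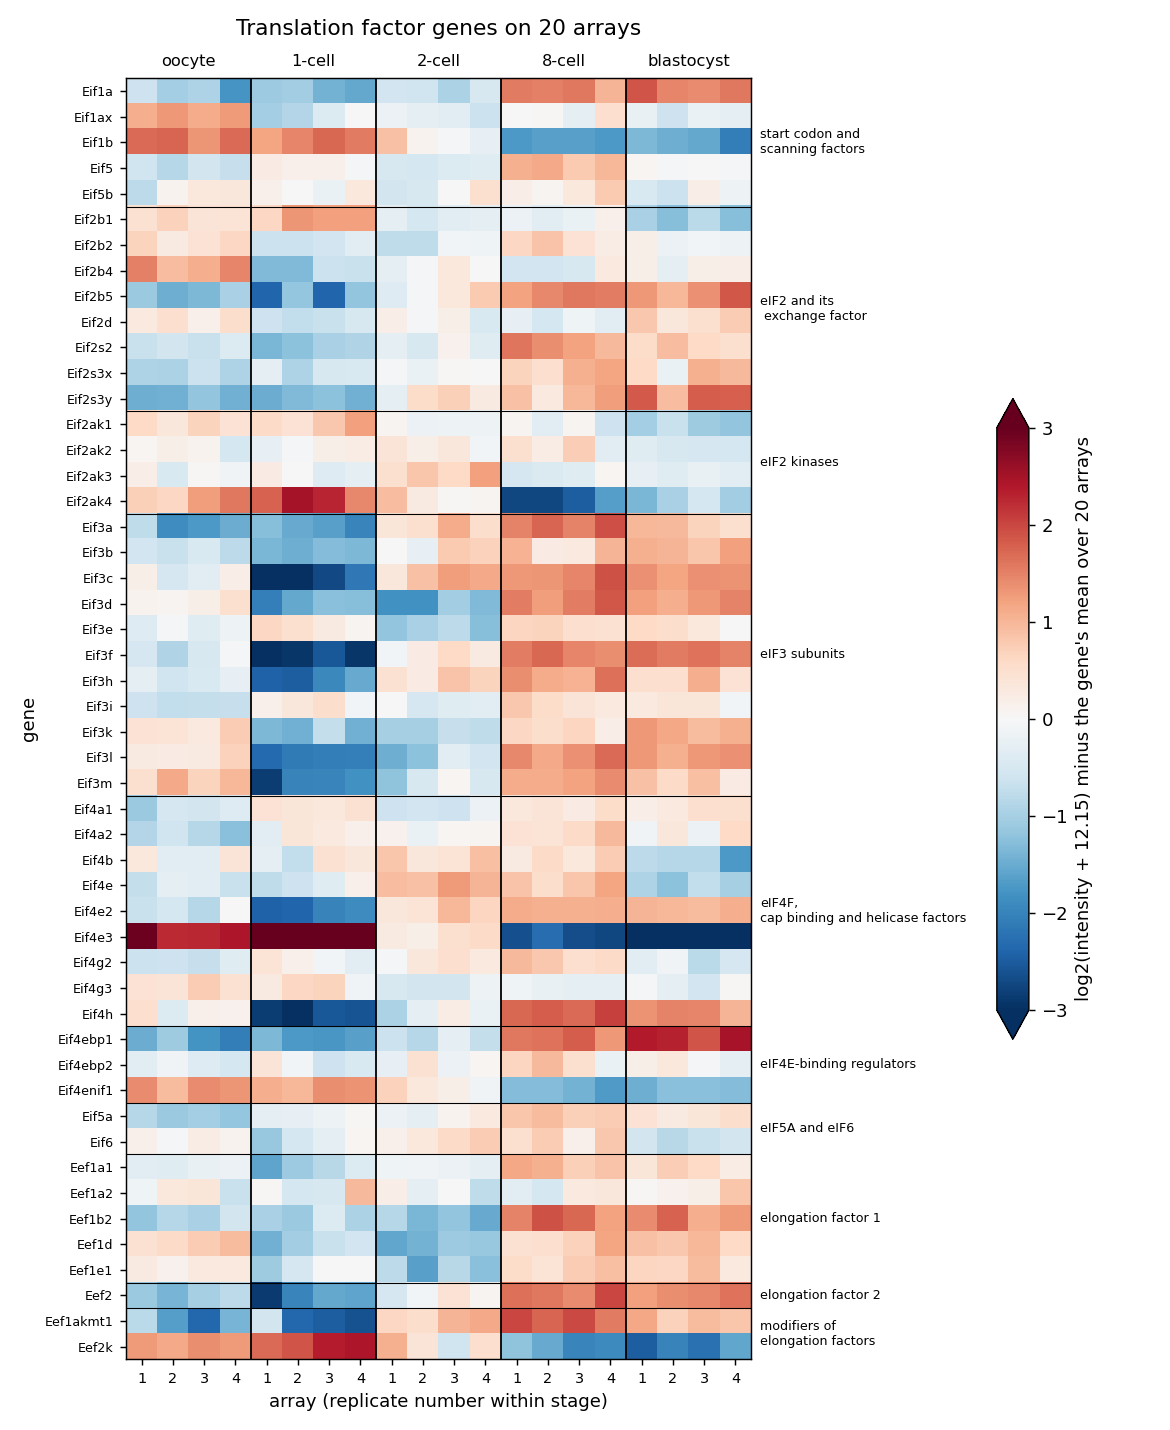
Each row is 1 of the 50 tested genes, grouped by role, and each column 1 of the 20 arrays. The colour is log2(intensity + 12.15) minus the mean of that gene over all arrays, from -3 (blue) to 3 (red). Most eIF3 genes are blue at the 1-cell stage and red from the 8-cell stage, whereas Eif4e3, Eef2k, Eif1b and Eif4enif1 go from red to blue.

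The stage with the highest mean was the 8-cell stage for 27 of the 50 genes (54%), against 26.3% of all genes. The stage with the lowest mean was the 1-cell stage for 22 genes (44%), against 18.5% of all genes. The commonest course over the first 3 transitions was a fall followed by rises at both later steps, in 9 genes: Eef1a1, Eef2, Eif2s2, Eif3f, Eif3h, Eif3l, Eif3m, Eif4e2 and Eif4h. The 5 genes Eif2b4, Eif2d, Eif3b, Eif3c and Eif6 fell and then rose to the 2-cell stage, and Eef1d, Eif2b2, Eif3d and Eif3k fell and then rose to the 8-cell stage. The shares of all genes with these courses were not determined. Each course rests on 1 probe set of the gene, and in Eif2s2 and Eif4e2 others were called the opposite way up to the 2-cell stage. Eef1a2, the elongation factor 1A of muscle and nerve, and Eif4ebp2, a repressor of eIF4E, had no called change at any of the 4 transitions. Their stage means lay at 76.7 to 114 and at 129.7 to 248. Other probe sets of Eif4ebp2 did move: one rose by 1.43 ± 0.28 and 0.84 ± 0.28 with overlapping arrays, and another fell to the blastocyst, where all its arrays were below the filter, by 0.93 ± 0.25.

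**Figure D2:**
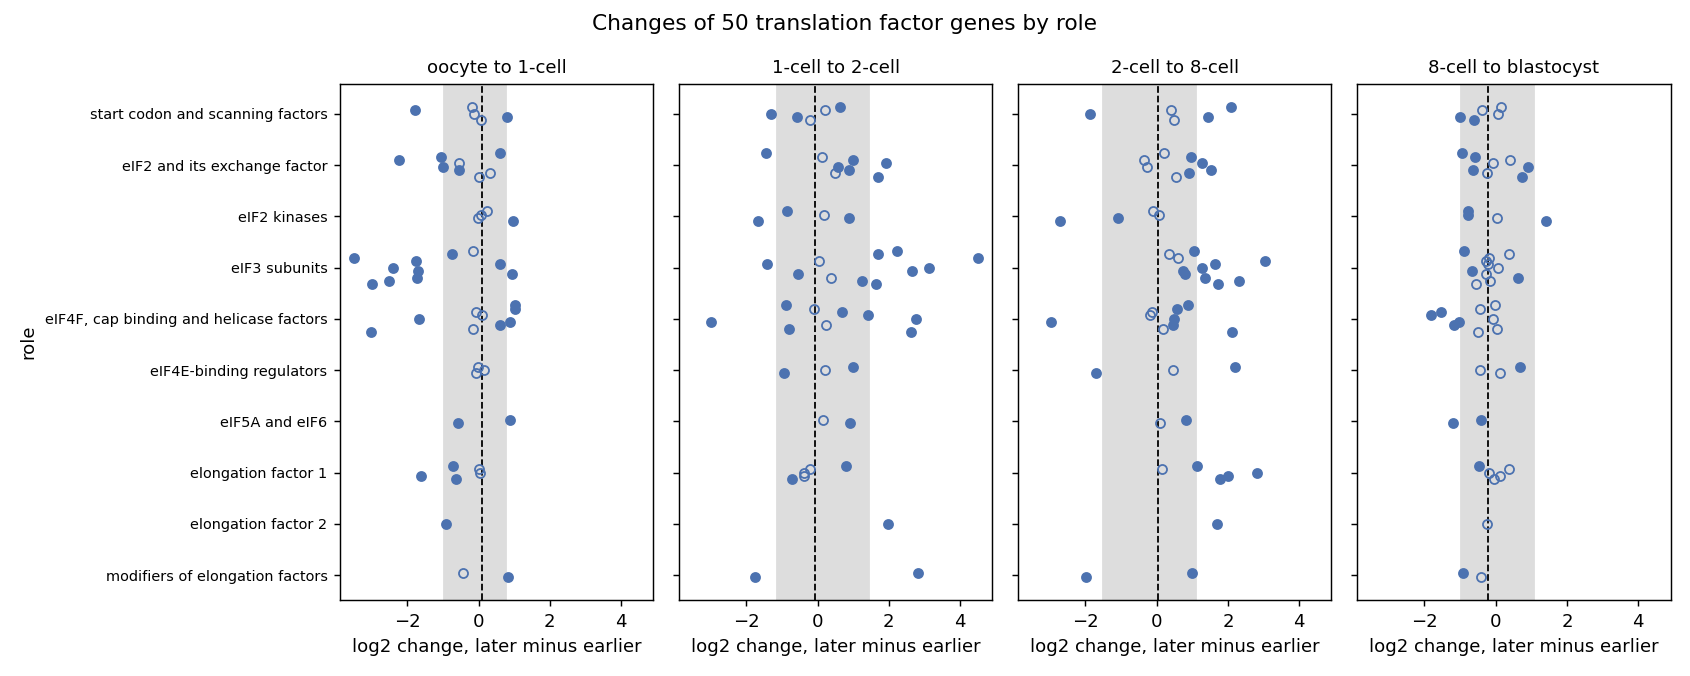
Log2 changes of the 50 genes at the 4 transitions, by role. Filled points passed the test and open points did not. The dashed line is the median of all 10257 genes, and the grey band runs from their 10th to their 90th percentile. Most eIF3 genes lie left of the band at the first transition, and many lie right of it at the next 2.

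The subunits of eIF3, the large complex that holds the small ribosomal subunit ready for the mRNA, did not share 1 course. Over the first 3 transitions 4 of the 11, Eif3f, Eif3h, Eif3l and Eif3m, fell, rose and rose again. Of the 11 subunits tested, 8 fell from oocyte to 1-cell stage, all of them under all 4 scalings. Another 2 rose, neither of them under scaling to the controls. Of all genes 16.6% fell at this step, 15.5% under all 4 scalings, and 15.2% rose. From the 1-cell to the 2-cell stage 7 rose, all under all 4 scalings, and 2 fell. Of all genes 22.0% rose, 19.3% under all 4 scalings, and 22.7% fell. From the 2-cell to the 8-cell stage 9 rose, 6 of them under all 4 scalings, and 0 fell. Of all genes 22.2% rose, 7.79% under all 4 scalings, and 25.7% fell. The median change over the subunits was -1.72, 1.64, 1.27 and -0.21 at the successive transitions.

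Eif3c, a core subunit that binds eIF1 and eIF5, read 980.3, 605.2, 676.9 and 1000.8 on the oocyte arrays and 20.8, 19, 122.3 and 187 on the 1-cell arrays. At the 2-cell stage it read 1100.2, 1604.7, 2090.1 and 1921.9, with no overlap between neighbouring stages up to that point. It thus fell by 3.48 ± 0.38 and then rose by 4.51 ± 0.38 (SE, adjusted p = 3.73e-08 and 9.18e-11), under all 4 scalings. The 1-cell arrays differed among themselves, since arrays 1 and 2 lay far below arrays 3 and 4. Of its 4 tested probe sets 3 fell and 3 then rose.

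Eif3f, a subunit with an MPN domain, read 441.5, 333, 450.3 and 606.2 in oocytes, 60.2, 73.5, 99 and 73.8 at the 1-cell stage, 597.7, 748.7, 966 and 765.2 on the 2-cell arrays and 1860.7, 2133.8, 1764.7 and 1674.1 at the 8-cell stage. No 2 neighbouring stages of these overlapped. It fell by 2.39 ± 0.18, then rose by 3.14 ± 0.18 and by 1.27 ± 0.18, and stood at 1935 ± 115 (SD, n = 4) in blastocysts. Eif3h, the other MPN-domain subunit, fell by 1.69 ± 0.20, rose by 2.64 ± 0.20 and rose again by 0.75 ± 0.20, the last not under all 4 scalings. Its level in the blastocyst fell by 0.67 ± 0.20 with overlapping arrays, a change that turned positive under scaling to the controls.

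Eif3m went from 742, 1183.6, 855.7 and 1075.5 in oocytes to 62.8, 122.9, 124.9 and 141.9 at the 1-cell stage. It came back through 223, 378.3, 551 and 379.4 to 1161.9, 1158.4, 1241.7 and 1426.2 at the 8-cell stage. The changes were -2.99 ± 0.23, 1.64 ± 0.23 and 1.73 ± 0.23, under all 4 scalings. Eif3l fell by 2.51 ± 0.20 and rose by 1.25 ± 0.20 and 2.31 ± 0.20, with stage means of 755, 122, 322 and 1573. By their means, both subunits were still below the oocyte level at the 2-cell stage.

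Eif3d and Eif3k stayed low longer. Eif3d, the subunit that can itself bind the cap of some mRNAs, read 671.9, 659.8, 700.6 and 866.7 in oocytes, 140.8, 204.8, 251.9 and 248.6 at the 1-cell stage and 166.8, 168.6, 296.5 and 240.4 on the 2-cell arrays. The 1-cell and 2-cell arrays overlapped, and the 8-cell arrays at 1834.2, 1504.6, 1829.3 and 2297.4 lay above all of them. It fell by 1.74 ± 0.19 and later rose by 3.05 ± 0.19, under all 4 scalings. Eif3k fell by 1.72 ± 0.17, rose by 1.36 ± 0.17 to the 8-cell stage and rose by a further 0.63 ± 0.17 to the blastocyst, each under all 4 scalings.

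Eif3a and Eif3b, the core scaffold subunits, changed less at the first step. Eif3a read 443 ± 171 in oocytes and 387 ± 78.4 at the 1-cell stage (SD, n = 4), which did not pass the test. It then rose by 2.23 ± 0.21 under all 4 scalings and by 1.05 ± 0.21 to the 8-cell stage, which lost its call under quantile normalization and control scaling. Its change of -0.89 ± 0.21 to the blastocyst turned positive under scaling to the controls. Eif3b fell by 0.75 ± 0.21 and rose by 1.68 ± 0.21, both under all 4 scalings.

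Eif3e and Eif3i went the other way at the 1-cell stage. Eif3i rose by 0.93 ± 0.16 and Eif3e by 0.59 ± 0.16, and both changes turned negative under scaling to the controls. Eif3i then fell by 0.54 ± 0.16 with overlapping arrays, and Eif3e fell by 1.41 ± 0.16, the latter under all 4 scalings. To the 8-cell stage Eif3e rose by 1.63 ± 0.16 under all 4 scalings. Eif3i rose by 0.81 ± 0.16, which lost its call under quantile normalization (0.29, adjusted p = 0.0912) and under scaling to the controls (0.25, adjusted p = 0.502). The probe sets of Eif3e opposed each other: the representative and a second one rose to the 1-cell stage, and another fell by 2.18 ± 0.17, from 985.5, 1284.9, 1266.6 and 1416.8 to 237.2, 254.4, 290.4 and 264.2. That probe set then rose by 1.29 ± 0.17 to the 2-cell stage while the same 2 fell.

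The sequence just before the gene start is shown for 7 genes that fell to the 1-cell stage and then recovered, and they were picked because their 100 bases before the start hold a match to a searched motif. Promoter windows of 300 bases were found for 42 of the 52 genes, from RefSeq on build GRCm38.p6, and 5 short motifs were searched on both strands. The motif CCGGAAG, known from binding sites of ETS factors, was in 29.8% of the 57 windows of members and in 8.86% of all 32851 windows. CACGTG, an E-box, was in 22.8% and 7.15% of them, AAGATGGCG, known from YY1 sites, in 5.26% and 1.40%, TGACGTCA, a cAMP response element, in 1.75% and 1.79%, and TATAAA in 7.02% and 13.6%. Windows of 1 gene can overlap, and a match is a description of letters and not a binding site. Each line gives the 100 bases before the annotated start, 5′ to 3′ on the strand of the gene, from the window with the most matches, and capitals mark a match to any of the 5 motifs, with CTTCCGG as the ETS motif read on the other strand.
Eif3c (chr7:126566367-126566466, minus strand): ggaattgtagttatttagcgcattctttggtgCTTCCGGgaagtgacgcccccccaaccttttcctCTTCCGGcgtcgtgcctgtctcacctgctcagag
Eif3d (chr15:77970825-77970924, minus strand): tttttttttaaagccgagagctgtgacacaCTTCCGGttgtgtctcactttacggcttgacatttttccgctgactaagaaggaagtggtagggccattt
Eif3l (chr15:79075123-79075222, plus strand): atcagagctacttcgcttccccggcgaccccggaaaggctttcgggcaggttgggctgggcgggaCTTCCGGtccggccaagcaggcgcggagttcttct
Eif3m (chr2:105017028-105017127, minus strand): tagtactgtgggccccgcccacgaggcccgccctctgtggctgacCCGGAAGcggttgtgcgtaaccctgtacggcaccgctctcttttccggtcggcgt
Eif3f (chr7:108934315-108934414, plus strand): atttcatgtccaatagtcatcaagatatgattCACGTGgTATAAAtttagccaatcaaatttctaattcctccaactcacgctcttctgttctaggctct
Eif3k (chr7:28981889-28981988, minus strand): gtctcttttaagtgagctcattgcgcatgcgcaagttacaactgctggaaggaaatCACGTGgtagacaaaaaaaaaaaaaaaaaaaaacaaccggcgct
Eif4h (chr5:134639410-134639509, minus strand): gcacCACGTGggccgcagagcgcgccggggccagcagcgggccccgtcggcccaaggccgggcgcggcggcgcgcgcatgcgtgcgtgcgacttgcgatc

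The first 4 of these stretches hold the ETS motif, Eif3c in 2 places, and the other 3 hold the E-box. The capitals in Eif3f also mark TATAAA, 1 base after the E-box. Among genes that fell from oocyte to 1-cell stage and had a window, 8 of 17 held the ETS motif, against 1 of 7 that rose and 5 of 16 with no call. The E-box was in 4 of 17, 3 of 7 and 3 of 16 of the same groups. In the 100 bases before the start, 9 of the 17 genes that fell held a match to any of the 5 motifs: the 7 printed, Eef2 and Eif4e2. The other 8, Eif3b among them, held none there. These counts were not tested.

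Among the factors that bind the cap and unwind the mRNA, the helicase cofactor Eif4h had the same sequence of calls as 4 of the 11 eIF3 genes. It read 1939.8, 1025.5, 1523.1 and 1497.4 in oocytes and 181.1, 89.5, 225 and 217.2 at the 1-cell stage. It read 699.6, 1108.1, 1598.3 and 1200.4 at the 2-cell stage and 4551.6, 4820, 4491.9 and 5684.6 on the 8-cell arrays. It fell by 3.03 ± 0.24 and rose by 2.63 ± 0.24 and 2.13 ± 0.24 (adjusted p = 1.13e-10, 4.69e-10 and 2.3e-08), under all 4 scalings, and all 3 of its probe sets moved this way. Eif4b, the other cofactor of eIF4A, read 409.8 ± 112 in oocytes, 623 ± 125 at the 2-cell stage and 189.7 ± 52.4 in blastocysts. Its rise to the 2-cell stage, 0.68 ± 0.25, had overlapping arrays and was no longer called under median centring or without any 1 of 1-cell arrays 1 and 2 or 2-cell arrays 1 and 4 (log2 change 0.45 to 0.61, adjusted p 0.0691 to 0.149). Its change of -1.54 ± 0.25 to the blastocyst was not called under scaling to the controls. At both steps the representative alone was called among the 3 tested probe sets of Eif4b. Their changes ran from -0.26 to 0.68 at the 2-cell stage and from -1.54 to 0.22 at the blastocyst stage.

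Cap-binding proteins of the eIF4E family moved in different directions. Eif4e3, a family member with an atypical way of binding the cap, read 3962.5, 2448.7, 2484.4 and 2803.5 in oocytes and 5113.8, 5666.7, 5742.1 and 4759.1 at the 1-cell stage. It then read 613.3, 580.3, 710.7 and 759.4 at the 2-cell stage, 71.6, 95.1, 70.7 and 65.9 on the 8-cell arrays and 26.3, 31, 27.9 and 37.9 in blastocysts, and no neighbouring stages overlapped. The changes were -2.98 ± 0.17 and -2.95 ± 0.17, under all 4 scalings, and -6.08 ± 0.17 from oocyte to blastocyst. The last was the largest change among the 50 genes between these end points. Most blastocyst arrays were below the filter of 32.9, so the size of that change rests in part on the added constant. The rise of Eif4e3 by 0.88 ± 0.17 to the 1-cell stage turned negative under scaling to the controls. Its second probe set moved in the same directions up to the 8-cell stage. Its change of -1.03 ± 0.17 to the blastocyst was not called under scaling to the controls.

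Eif4e, the main cap-binding protein, read 828.8, 913.5, 1088 and 1577.3 at the 1-cell stage, 2681.6, 2619.4, 3442 and 2872.5 on the 2-cell arrays, 2566.8, 2043.7, 2507.9 and 3231.5 at the 8-cell stage and 732.6, 597.1, 839.1 and 703.3 on the blastocyst arrays. The 2-cell and 8-cell arrays overlapped, above every 1-cell and blastocyst array. It rose by 1.42 ± 0.18 and later fell by 1.82 ± 0.18, both under all 4 scalings, and was the only member with a fall to the blastocyst called under all of them. The rise rests on the representative among its 3 probe sets, since the other 2 fell at that step, with changes of -0.76 ± 0.18 and -0.65 ± 0.18. All 3 fell to the blastocyst. Its net change from oocyte to blastocyst, -0.48 ± 0.18, was no longer called under median centring (-0.41, adjusted p = 0.12) or without any 1 of oocyte arrays 2 and 3 or blastocyst array 2 (log2 change -0.42 to -0.40, adjusted p 0.0804 to 0.0882). Eif4e2, a cap-binding protein that takes part in repression, fell by 1.66 ± 0.18 from 212 ± 61.4 to 57.7 ± 12.9 and then rose by 2.77 ± 0.18 to 467 ± 105. Both held under all 4 scalings, while another probe set of the gene moved the opposite way at both steps, with overlapping arrays. Its further rise of 0.48 ± 0.18 turned negative under scaling to the controls and was not called without any 1 of 2-cell arrays 1 and 2 or 8-cell arrays 1, 2, 3 and 4 (log2 change 0.40 to 0.49, adjusted p 0.051 to 0.106).

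The helicases and scaffolds differed in their early calls. Eif4a1 and Eif4a2, the paired eIF4A helicases, rose to the 1-cell stage by 1.03 ± 0.16 and 1.02 ± 0.19, from 893 ± 184 and 715 ± 131. Neither was called under scaling to the controls, where the change of Eif4a2 turned to -0.0016. Eif4a1 then fell by 0.89 ± 0.16 under all 4 scalings and rose again by 0.87 ± 0.16, which was not called under scaling to the controls. Eif4a2 rose to the 8-cell stage by 0.58 ± 0.19, a call that ended under quantile normalization (0.33, adjusted p = 0.146), under scaling to the controls (0.018, adjusted p = 0.972) and without 8-cell array 4 (log2 change 0.45, adjusted p 0.0612). Eif4g2, a scaffold related to eIF4G that lacks the eIF4E-binding site, rose by 0.61 ± 0.18 to the 1-cell stage and by 0.45 ± 0.18 to the 8-cell stage. The first turned negative under scaling to the controls, and the second under that scaling and under quantile normalization, where it was a called fall of 0.56 (adjusted p = 0.000937). The second call also ended without any 1 of 2-cell arrays 1, 2 and 4 or 8-cell arrays 1 and 2 (log2 change 0.34 to 0.47, adjusted p 0.0541 to 0.149). Eif4g2 fell by 1.16 ± 0.18 to the blastocyst, from 9440.4, 8442.3, 6805.5 and 7209.1 to 3857.9, 4431, 2727.8 and 3381.3, not called under scaling to the controls. Eif4g3, the other eIF4G-type scaffold measured, had no call to the 1-cell stage and fell by 0.79 ± 0.18 at the 2-cell stage, also not called under that scaling.

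**Figure D3:**
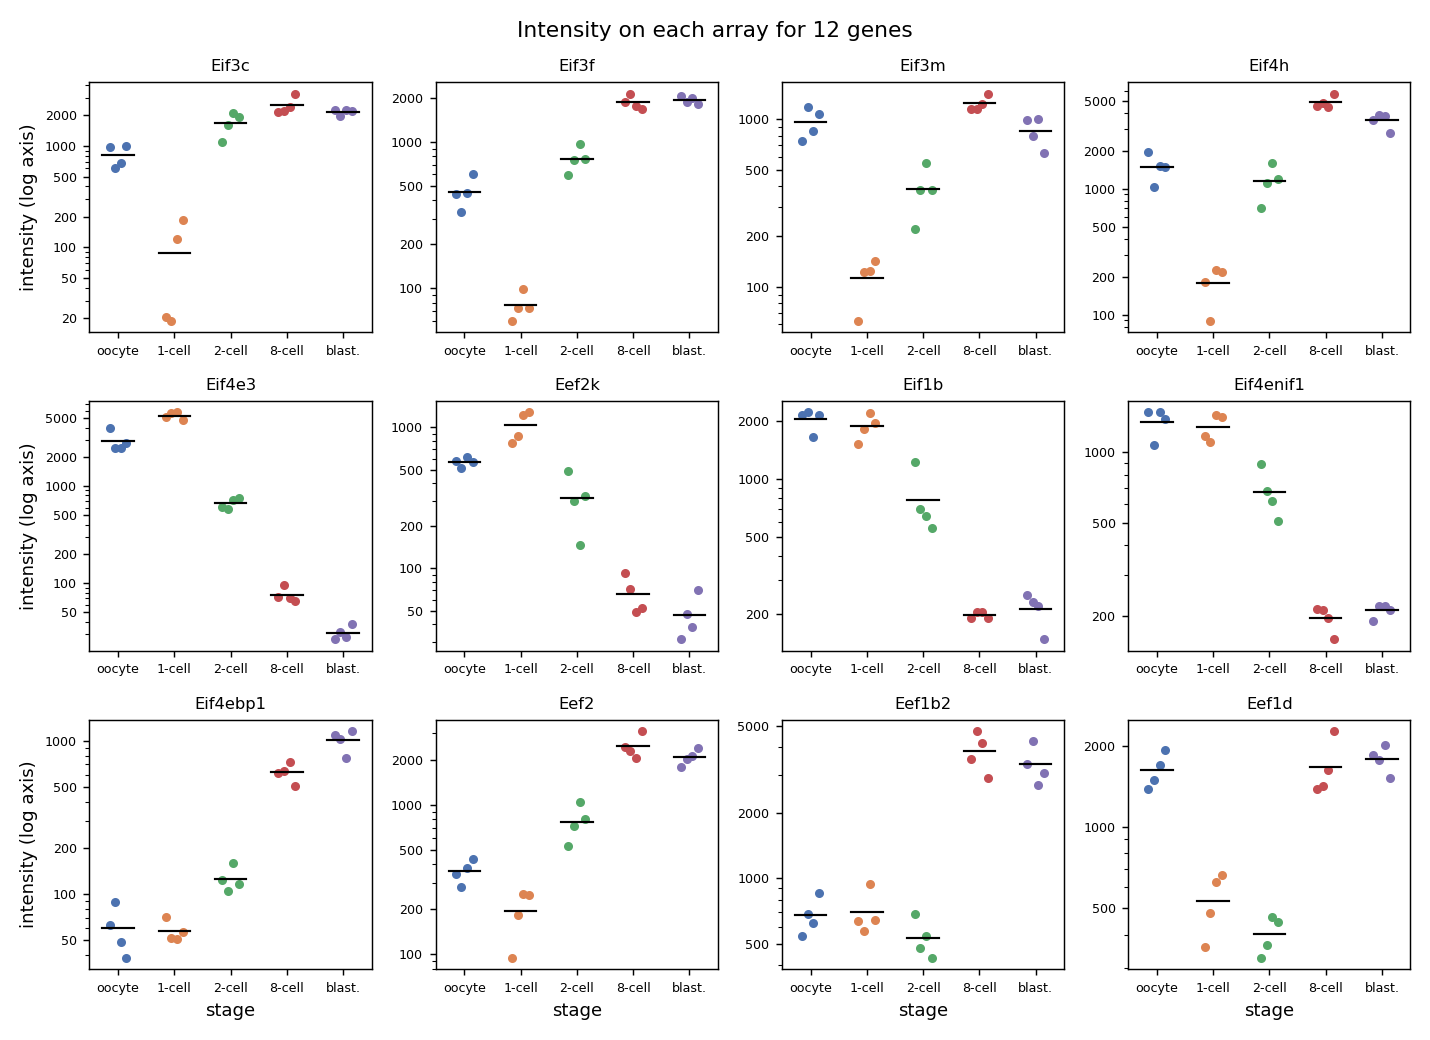
Intensity of 12 genes on each of the 20 arrays, on a log axis. Points are arrays and bars are stage means, n = 4 for each stage. Eif3c, Eif3f, Eif3m and Eif4h dip at the 1-cell stage, Eif4e3, Eef2k, Eif1b and Eif4enif1 decline after it, and Eif4ebp1, Eef2, Eef1b2 and Eef1d are high at the last 2 stages. Eef1d is also high in oocytes.

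The proteins that hold eIF4E back split in opposite directions. Eif4ebp1, which releases eIF4E when mTOR phosphorylates it, read 62.9, 88.9, 48.8 and 38.1 in oocytes and 70.2, 51.3, 51.1 and 56.5 at the 1-cell stage, which overlapped. It read 122.7, 104.3, 159.8 and 116 at the 2-cell stage, 618.2, 635.3, 724.5 and 507.3 on the 8-cell arrays and 1088.4, 1030.7, 770 and 1155 in blastocysts, each stage above the last with no overlap. It rose by 0.98 ± 0.20, 2.20 ± 0.20 and 0.69 ± 0.20, each under all 4 scalings. The change from oocyte to blastocyst was 3.87 ± 0.20. Eif4enif1, also called 4E-T, which carries eIF4E into the nucleus and into granules of silent mRNA, fell instead. It read 1167.6, 1100, 1440.8 and 1411.8 at the 1-cell stage, 884.9, 679.5, 619.1 and 505.8 on the 2-cell arrays and 214.6, 212.4, 196.7 and 159.4 at the 8-cell stage. The changes were -0.94 ± 0.17 and -1.70 ± 0.17, and the first was not called under scaling to the controls.

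Eif1a is one of the small factors that help the ribosome to scan for the start codon. Its representative probe set, chosen by its mean log2 value, read 91.8, 67.3, 71.9 and 34.7 in oocytes, 64, 65.5, 48.3 and 43.4 at the 1-cell stage and 96.1, 94.4, 70.5 and 103.5 on the 2-cell arrays. The 8-cell arrays read 462.7, 450.1, 471.5 and 315.3 and the blastocyst arrays 583.6, 431.1, 415.2 and 469.3. The first 3 stages lay far below the last 2. It rose by 0.62 ± 0.22 to the 2-cell stage, a call that ended under scaling to the controls and without any 1 of 1-cell arrays 3 and 4 or 2-cell array 4 (log2 change 0.53 to 0.57, adjusted p 0.053 to 0.0652). The rise of 2.08 ± 0.22 to the 8-cell stage was called under all 4 scalings. The second probe set was above the filter on every array from the 2-cell stage on. It read 9.1, 7.5, 7.8 and 7.5 in oocytes, 1.4, 1.6, 6.8 and 3.8 at the 1-cell stage and 229.6, 297.9, 312.1 and 223.7 on the 2-cell arrays. Its rise to the 2-cell stage was called under all 4 scalings. All its 1-cell arrays were below the filter of 32.9, so the size of that rise rests on the added constant: it was 4.16 ± 0.19 on the scale used here, and 2.59 and 5.45 with a larger constant, the pooled median, and with a smaller one, that median divided by 16. It rose further by 1.86 ± 0.19, under all 4 scalings, to 1009.5 ± 226 (SD, n = 4) at the 8-cell stage.

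**Figure D4:**
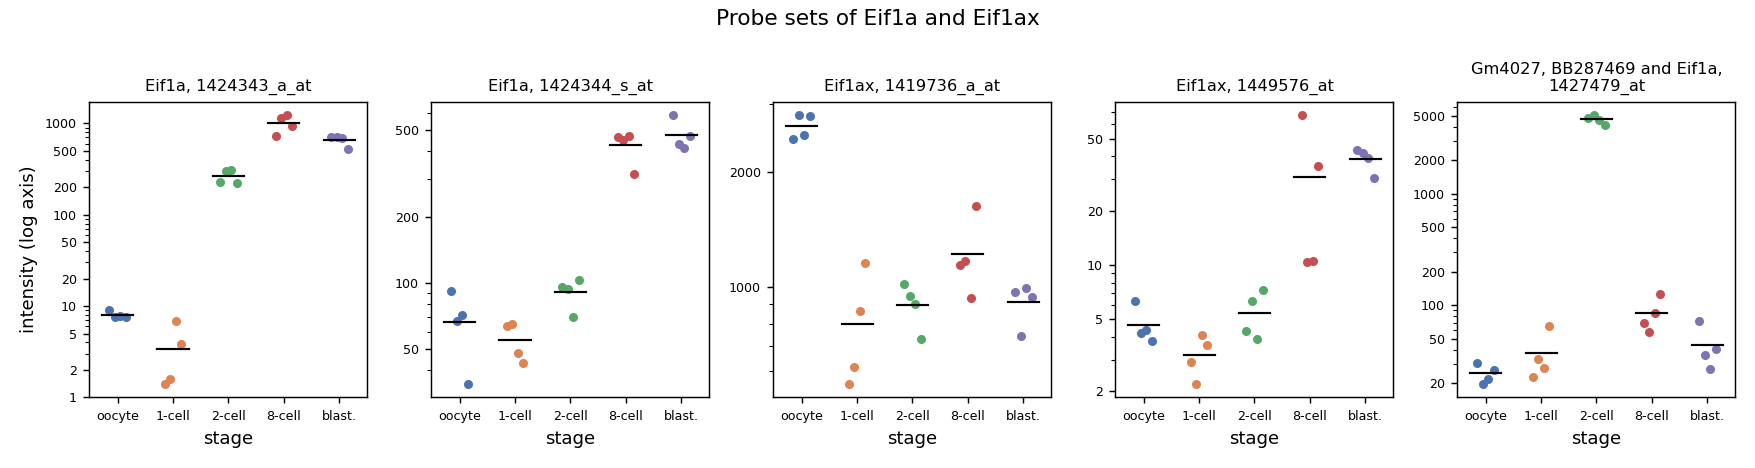
Intensity on each array, on a log axis, for the 2 probe sets of Eif1a, the 2 of Eif1ax and the probe set that the annotation assigns to Gm4027, BB287469 and Eif1a together. Points are arrays and bars are stage means (n = 4). The shared probe set is high at the 2-cell stage alone, while both Eif1a probe sets stay high to the blastocyst.

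Eif1ax, the near-identical factor encoded on the X chromosome, took another course. It read 2435.6, 2808.8, 2491.5 and 2804 in oocytes and 555.6, 613.9, 860.9 and 1151.6 at the 1-cell stage, and it fell by 1.77 ± 0.19 under all 4 scalings. Its later stage means were 897, 1213 and 911, with no call at the later transitions. Its other probe set rose to the 8-cell stage from arrays all below the filter, by 1.09 ± 0.31, or by 0.50 and 1.66 with the larger and the smaller constant. The within-array log2 ratio of Eif1a to Eif1ax rose by 1.66 from the 2-cell to the 8-cell stage (exact permutation p = 0.0286, adjusted 0.0571). That is the smallest unadjusted p that 4 arrays against 4 can give. Eif1b, a close relative of Eif1, which guards start codon choice, read 1518.8, 1835.5, 2216.5 and 1970.8 at the 1-cell stage and 1230.9, 705.4, 647.9 and 556.4 on the 2-cell arrays. It read 191, 205.9, 204 and 190.6 at the 8-cell stage, below every array of the earlier stages. The changes were -1.31 ± 0.20 and -1.86 ± 0.20, under all 4 scalings, and -3.21 ± 0.20 from oocyte to blastocyst.

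Eif5, which makes eIF2 hydrolyse its GTP at the start codon, rose and fell by turns on the deposited scale. Its stage means were 1026, 1788, 1201, 3288 and 1642, and of its 4 calls the rise to the 8-cell stage, 1.44 ± 0.13, was made under all 4 scalings. The rise to the 1-cell stage, 0.79 ± 0.13, and the fall to the blastocyst, -0.99 ± 0.13, changed sign under scaling to the controls. One of its 4 probe sets fell by 0.61 ± 0.22 to the 1-cell stage and rose to the 2-cell stage by 2.59 ± 0.22, opposite to the representative. Eif5b, the GTPase that joins the ribosomal subunits, kept stage means between 215 and 333. Its single call, a change of -0.61 ± 0.25 to the blastocyst, turned positive under scaling to the controls and ended without any 1 of 8-cell arrays 1, 3 and 4 or blastocyst arrays 1, 2 and 4 (log2 change -0.66 to -0.47, adjusted p 0.0569 to 0.145). Its second probe set rose by 0.63 ± 0.19 to the 1-cell stage and fell by 0.74 ± 0.19 to the 2-cell stage.

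eIF2 and eIF2B, the factor that recharges eIF2 with GTP, did not move as a unit. Of their 8 genes, including the separate tRNA-delivery factor Eif2d, 4 fell to the 1-cell stage under all 4 scalings and 5 rose to the 2-cell stage under all 4 scalings. The shares of all genes that did so were 15.5% and 19.3%. Eif2s2, the beta subunit of eIF2, had stage means of 3018, 2074, 3821, 11109 and 7053. It fell by 0.55 ± 0.17 and rose by 0.87 ± 0.17 and 1.54 ± 0.17, under all 4 scalings, while its change of -0.65 ± 0.17 to the blastocyst turned positive under quantile normalization and control scaling. Of its 6 probe sets 2 did the opposite at the first steps: they rose by 1.44 ± 0.19 and 1.56 ± 0.21 and then changed by -1.77 ± 0.19 and -1.25 ± 0.21. At those steps the representative alone was called in its own direction, whereas all 6 probe sets rose to the 8-cell stage.

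The gamma subunit of eIF2 has an X-linked and a Y-linked gene in the mouse. Eif2s3x read 346 ± 36.6 in oocytes and 1184 ± 265 at the 8-cell stage (SD, n = 4), and its rise by 0.91 ± 0.21 from the 2-cell to the 8-cell stage was not called under scaling to the controls. Another of its 3 tested probe sets rose by 2.68 to the 2-cell stage, where the representative had no call. That probe set read 56.3, 29.1, 70.3 and 95.4 on the 1-cell arrays and 359.8, 397.5, 511 and 512.3 on the 2-cell arrays. The Y-linked Eif2s3y read 0.6, 0.8, 3.5 and 0.8 in oocytes and 0.4, 2, 2.8 and 0.8 at the 1-cell stage, far below the filter. At the 2-cell stage it read 16.5, 39.9, 45.5 and 30.5, above every earlier array, a rise called under all 4 scalings. Its size, 1.68 ± 0.27, rests on the added constant and was 0.69 and 2.95 with the larger and the smaller one. In blastocysts it read 114.2, 55.4, 111.4 and 110.9, a rise of 0.74 ± 0.27 that overlapped the 8-cell arrays and was not called with the smaller constant (0.83, adjusted p = 0.0827) or without any 1 of 8-cell array 2 or blastocyst arrays 1, 3 and 4 (log2 change 0.55 to 0.67, adjusted p 0.0685 to 0.117).

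Within eIF2B the subunits differed. Eif2b5, the catalytic epsilon subunit, read 57.8, 42.7, 47 and 65.3 in oocytes and 17, 56, 17.2 and 55 at the 1-cell stage. It read 103.5, 133, 177.4 and 247.7 at the 2-cell stage and 336.3, 402.1, 444.5 and 430 on the 8-cell arrays. The oocyte and 1-cell arrays overlapped and each later stage lay above the last. It rose by 1.93 ± 0.27 under all 4 scalings and by 1.28 ± 0.27, the latter not called under scaling to the controls. Eif2b4, the delta subunit, fell by 2.24 ± 0.21 from 1307 ± 255 to 271 ± 74.9 and rose by 0.99 ± 0.21, and Eif2b2, the beta subunit, fell by 1.06 ± 0.18, all under all 4 scalings. Of the 3 tested probe sets of Eif2b2 the representative alone was called to the 1-cell stage, and their changes ran from -1.06 to -0.11. Eif2b1, the alpha subunit, rose by 0.61 ± 0.16 with overlapping arrays, a sign that turned under scaling to the controls, and then fell by 1.46 ± 0.16 under all 4 scalings. Eif2d fell by 1.00 ± 0.17, rose by 0.59 ± 0.17 and rose by 0.90 ± 0.17 to the blastocyst, each under all 4 scalings.

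The eIF2 kinases slow translation by phosphorylating eIF2 under different stresses, and each had its own course. Eif2ak4, or GCN2, the sensor of amino acid shortage, read 176.3, 165.3, 264.7 and 333.3 in oocytes and 385.1, 641.4, 552.7 and 302.3 at the 1-cell stage, a rise of 0.96 ± 0.28 with overlap that turned negative under scaling to the controls. It then read 206.3, 127.3, 107.1 and 110.8, 5.4, 5.4, 8.6 and 24.6 and 32.9, 46.6, 68.2 and 44.3 at the next 3 stages. The change of -1.67 ± 0.28 to the 2-cell stage, the fall to the 8-cell stage and the rise after it were called under all 4 scalings. All the 8-cell arrays were below the filter, so the sizes into and out of that stage rest on the added constant: they were -2.72 ± 0.28 and 1.42 ± 0.28 on the scale used here. With the larger and the smaller constant the first was -1.63 and -3.47 and the second 0.70 and 2.01. Eif2ak3, or PERK, the sensor of the endoplasmic reticulum, read 251, 320, 270.7 and 427.1 at the 2-cell stage, above the 1-cell and 8-cell arrays. It rose by 0.88 ± 0.20 and fell by 1.10 ± 0.20, under all 4 scalings, but another probe set of the gene fell by 1.03 ± 0.27 at the first of these steps.

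Eif2ak1, or HRI, the heme sensor, fell by 0.86 ± 0.20 at the 2-cell stage and fell by 0.79 ± 0.20 at the blastocyst stage. The first was not called and the second turned positive under scaling to the controls. Eif2ak2, or PKR, which responds to double-stranded RNA, stayed at stage means of 27.6 to 57.5. Its change of -0.76 ± 0.24 to the blastocyst, whose arrays were all below the filter, was -0.46 and -0.92 with the larger and the smaller constant. It turned positive under scaling to the controls and was not called without 8-cell array 3 (log2 change -0.61, adjusted p 0.0526).

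Eif5a, the hypusine-bearing factor that helps peptide bonds form, and Eif6, which keeps free large subunits apart from small ones, diverged. Eif5a had stage means of 1766, 3259, 3637, 6391 and 4785. Its rise from oocyte to blastocyst, 1.43 ± 0.15, was called under all 4 scalings. Its rises of 0.88 ± 0.15 to the 1-cell and 0.83 ± 0.15 to the 8-cell stage and its fall of -0.42 ± 0.15 to the blastocyst each changed sign under another scaling, and the last was not called without any 1 of 8-cell array 2 or blastocyst array 2 (log2 change -0.37, adjusted p 0.059 to 0.0625). Eif6 fell by 0.58 ± 0.20 to the 1-cell stage with overlapping arrays, a call that ended without any 1 of oocyte arrays 1, 3 and 4 or 1-cell arrays 1 and 2 (log2 change -0.58 to -0.35, adjusted p 0.0518 to 0.162). It rose by 0.92 ± 0.20 to the 2-cell stage under all 4 scalings and fell by 1.21 ± 0.20 to the blastocyst, not called under scaling to the controls.

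Most elongation factor genes rose at the 8-cell stage. Of the 5 genes grouped with elongation factor 1 by symbol, 4 rose from the 2-cell to the 8-cell stage, 3 of them under all 4 scalings. Of all genes 22.2% rose at this step, 7.79% under all 4 scalings. The 3 were Eef1b2, Eef1d and Eef1e1, of which Eef1e1 is not a subunit of the factor. Eef2 also rose under all 4 scalings. Eef1b2, the nucleotide exchange subunit, read 544.4, 683.6, 627.2 and 856.4 in oocytes, 636.9, 575, 944.6 and 645.2 at the 1-cell stage and 686.9, 477, 545.1 and 430.8 on the 2-cell arrays, 3 overlapping groups. It read 3550.2, 4749.3, 4177.4 and 2887.8 at the 8-cell stage and 3360.1, 4261.6, 2691.9 and 3064.5 on the blastocyst arrays, above all earlier arrays. The rise was 2.81 ± 0.19 (adjusted p = 1.98e-12), under all 4 scalings. Eef1d, another exchange subunit, read 1382.1, 1496.1, 1694.9 and 1932.9 in oocytes, 359.3, 479.4, 623.9 and 665.5 at the 1-cell stage and 327.3, 367.3, 463.5 and 446.1 on the 2-cell arrays. It read 1381.8, 1414.8, 1628.8 and 2265.8 at the 8-cell stage, so that, with neighbouring stages overlapping only between the 1-cell and 2-cell arrays, it fell by 1.62 ± 0.19 and rose back by 2.01 ± 0.19, under all 4 scalings.

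Eef2, the translocase that moves the ribosome by a codon, rose in steps after an early fall. It read 344.9, 280.3, 379.1 and 435.7 in oocytes and 94.6, 183.2, 253.3 and 248 at the 1-cell stage. It read 530.5, 717.6, 1035.9 and 808.1 at the 2-cell stage and 2439, 2291.7, 2054 and 3107.3 on the 8-cell arrays, with no overlap at these steps. The fall of -0.92 ± 0.23 and the rises of 1.97 ± 0.23 and 1.69 ± 0.23 were called under all 4 scalings. Eef1a1, the main carrier of aminoacyl-tRNA, had stage means of 5755, 3656, 6117, 13398 and 9736. It fell by 0.71 ± 0.18 and rose by 0.80 ± 0.18, under all 4 scalings, and rose by 1.12 ± 0.18 to the 8-cell stage, which was not called under quantile normalization or control scaling. Its change of -0.46 ± 0.18 to the blastocyst turned positive under quantile normalization and control scaling and ended without any 1 of 8-cell arrays 1 and 2 or blastocyst arrays 1, 3 and 4 (log2 change -0.51 to -0.38, adjusted p 0.0515 to 0.119). Eef1e1, a scaffold protein of the aminoacyl-tRNA synthetase complex, rose by 1.78 ± 0.21 at the 8-cell stage under all 4 scalings. Its earlier changes were -0.64 ± 0.21, not called without any 1 of 1-cell arrays 1 and 2 (log2 change -0.61 to -0.42, adjusted p 0.0521 to 0.121), and -0.72 ± 0.21, with overlapping arrays and not called under scaling to the controls.

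The modifiers of elongation factors went opposite ways. Eef2k, the kinase that inactivates eEF2, read 572.9, 516.6, 619.3 and 567.5 in oocytes and 770.6, 867.3, 1223.7 and 1277.3 at the 1-cell stage. It read 493.4, 301, 147.2 and 327.1 at the 2-cell stage, 92.3, 71.6, 48.9 and 52.1 on the 8-cell arrays and 31.3, 47.3, 38.5 and 69.8 in blastocysts, the last 2 overlapping. The changes were -1.75 ± 0.26 and -1.99 ± 0.26, under all 4 scalings. From oocyte to blastocyst Eef2k changed by -3.34 ± 0.26 and Eef2 by 2.50 ± 0.23. Its rise by 0.82 ± 0.26 to the 1-cell stage turned negative under scaling to the controls and was not called without any 1 of 1-cell arrays 3 and 4 (log2 change 0.71 to 0.73, adjusted p 0.057 to 0.0583). Eef1akmt1, a lysine methyltransferase of eEF1A, had stage means of 23.6, 17.7, 163, 335 and 173. Its rise of 2.82 ± 0.33 to the 2-cell stage was called under all 4 scalings. The 1-cell arrays read 54.7, 6.8, 5.5 and 3.7, mostly below the filter of 32.9, so its size rests in part on the added constant. Its rise of 1.00 ± 0.33 to the 8-cell stage was not called under scaling to the controls (0.46, adjusted p = 0.322). Nor was it called with the smaller constant (1.04, adjusted p = 0.0714). Its change of -0.91 ± 0.33 to the blastocyst turned positive under scaling to the controls and ended without any 1 of 8-cell arrays 1 and 3 or blastocyst arrays 2, 3 and 4 (log2 change -0.92 to -0.84, adjusted p 0.052 to 0.0709).

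Probe sets of a gene did not always move alike. Of the 50 genes 29 had several tested probe sets. In 7 of them, Eif2ak3, Eif2s2, Eif3e, Eif4e, Eif4e2, Eif4g2 and Eif5, 2 probe sets were called in opposite directions at a transition. This happened in 4 genes from oocyte to 1-cell stage, in 6 from the 1-cell to the 2-cell stage, in 0 from the 2-cell to the 8-cell stage and in 2 from the 8-cell stage to the blastocyst. In Eif4g2 the representative fell to the blastocyst while another rose by 0.47 ± 0.18. The probe set with the highest mean log2 value stands for the gene throughout. Whether probe sets also match related genes or pseudogenes was not tested.

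**Figure D5:**
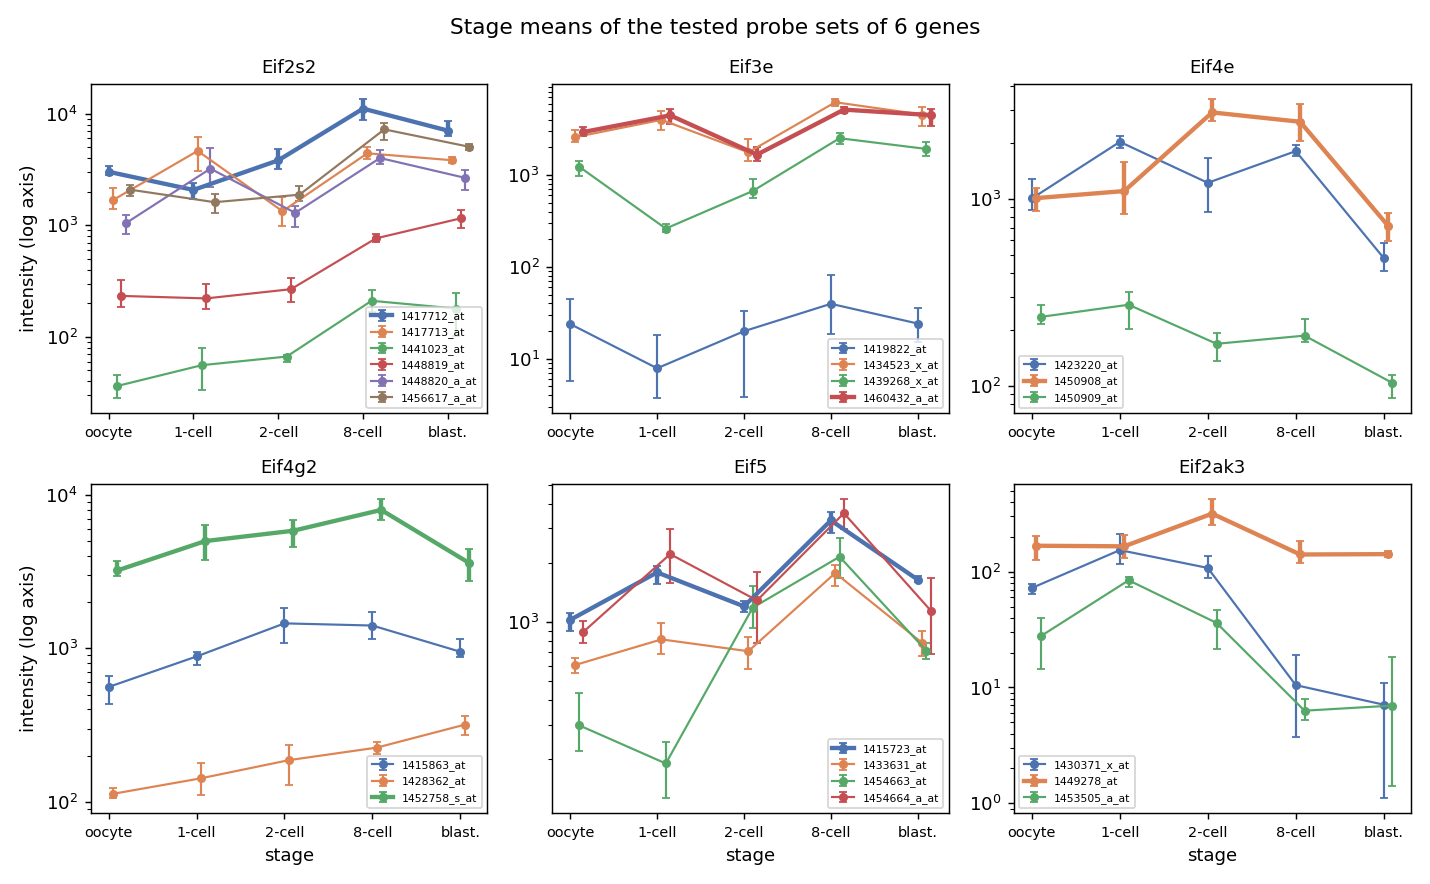
Stage means of every tested probe set of 6 genes, on a log axis. Error bars run from the lowest to the highest of 4 arrays, and the thick line is the probe set that stands for the gene. In Eif2s2, Eif3e, Eif4e and Eif5 some lines rise where others fall between the oocyte, 1-cell and 2-cell stages.

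Ratios of paralogs within an array were compared because a change of scale cancels in them for genes well above the added constant. Over 6 pairs and 4 transitions 24 exact permutation tests, two-sided, were made. The smallest p that 4 arrays against 4 can give, 0.0286, was reached by 12 of them and is 0.0571 after adjustment, so 0 passed the threshold. The log2 ratio of Eif4e to Eif4e2 was 2.22 ± 0.51 in oocytes, 3.97 ± 0.19 in 1-cell, 2.62 ± 0.14 in 2-cell and 1.96 ± 0.25 in 8-cell embryos, and 0.21 ± 0.22 in blastocysts (SD, n = 4), with no overlap between neighbours. Its change from the 1-cell to the 2-cell stage, -1.35, was -0.87 with the pooled median as the added constant. That of Eif4ebp1 to Eif4ebp2 was -0.42 ± 0.51 in 2-cell and 1.33 ± 0.39 in 8-cell embryos and 2.45 ± 0.37 in blastocysts. That of Eif2s3x to Eif2s3y went from 5.04 ± 0.35 at the 1-cell to 3.83 ± 0.46 at the 2-cell stage. With Eif2s3y far below the filter on the 1-cell arrays, the added constant sets this ratio: its change, -1.21, was -0.25 with the pooled median and -2.46 with that median divided by 16. The ratio also rests on the representative probe set of Eif2s3x, while another probe set of that gene rose by 2.68. That of Eif4a1 to Eif4a2 went from 0.32 ± 0.36 to -0.47 ± 0.23 at the same step, and that of Eef1a1 to Eef1a2 from 5.14 ± 0.62 to 6.15 ± 0.36. Only the changes of these ratios carry meaning, since probe sets differ in brightness.

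Other genes of translation outside the Eif and Eef families were listed separately, and 36 of the 42 listed were measured and tested. Of these 6 rose and 12 fell to the 1-cell stage (16.7% and 33.3%, against 15.2% and 16.6% of all genes), and 19 rose and 8 fell to the 2-cell stage (52.8% and 22.2%, against 22.0% and 22.7%). To the 8-cell stage 13 rose and 10 fell (36.1% and 27.8%, against 22.2% and 25.7%), and to the blastocyst 6 rose and 12 fell (16.7% and 33.3%, against 20% and 26.4%). Under all 4 scalings the counts were 0 and 11, 16 and 4, 3 and 9, and 5 and 0. The shares were 0% and 30.6%, 44.4% and 11.1%, 8.33% and 25%, and 13.9% and 0%, against 0.166% and 15.5%, 19.3% and 12.3%, 7.79% and 24.2%, and 18.6% and 2.01% of all genes. The genes with the 2 largest rises and falls at each step are named here. At the 1-cell stage Paip2, a repressor of poly(A)-binding protein, changed by -2.69 ± 0.24 and Dohh, which completes the hypusine of eIF5A, by -1.26 ± 0.22, both under all 4 scalings. Ybx1, an mRNA-packaging protein, changed by 1.56 ± 0.14 and Paip1 by 0.89 ± 0.16, neither of them under all 4 scalings.

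At the 2-cell stage Pabpc1, the main cytoplasmic poly(A)-binding protein, rose by 3.88 ± 0.20 and Etf1, the release factor that reads stop codons, by 3.65 ± 0.18. Gspt2, a partner of the release factor, changed by -3.07 ± 0.28 and Cpeb1, which controls the poly(A) tails of stored maternal mRNA, by -2.92 ± 0.16. At the 8-cell stage Abce1, which splits used ribosomes, rose by 1.83 ± 0.20 and Rps6, a protein of the small subunit, by 1.78 ± 0.26, while Paip1 changed by -2.78 ± 0.16 and Ppp1r15a, which restores eIF2 after stress, by -2.53 ± 0.25. All 8 held under all 4 scalings. In blastocysts Pdcd4, an inhibitor of eIF4A, rose by 1.18 ± 0.19 and Mcts1, a reinitiation factor, by 0.93 ± 0.19, under all 4 scalings. Pabpc4 changed by -1.51 ± 0.19 and Abcf1 by -1.04 ± 0.24, neither under all 4 scalings.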

How the data were processed

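The authors deposited linear probe set intensities for the 20 arrays. From their values, all arrays were scaled to nearly the same trimmed mean, while the name of the software or of a background step is not given in the sources used here. Each array was taken to its stage and replicate number by its title, and 0 columns of per-sample values were left unused. Gene names came from the platform annotation, in which 691 probe sets carry several symbols and 1555 none.

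Intensities were transformed to log2(intensity + 12.15), where 12.15 is the pooled median divided by 4. Probe sets above 32.9, the pooled 40th percentile, in 4 or more arrays entered the test, 17208 in all. One limma fit (version 3.58.1 in R 4.3.3, eBayes, trend by intensity, 15 residual degrees of freedom) held all 5 stages, and p-values were adjusted by Benjamini and Hochberg over all tested probe sets within a comparison. The threshold was 0.05. A gene was counted by its tested probe set with the highest mean log2 value. The procedure was tested on simulated data.

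Named were Eif1a, up to 4 non-overlapping rises and falls at each transition, the core factors, both genes of each paralog pair and, outside the family, the 2 largest rises and falls at each transition. The other members were added for completeness, and core factors without a probe set under the rule, such as Eif4g1, were not analysed here. The members and lists were chosen with earlier results of these data known. Nat1 was left out of the other translation genes, since on this array the symbol names an N-acetyltransferase. Alternatives covered the scaling, the filter, the pseudocount, the intensity trend, the stages in the fit, the probe set that stands for a gene, the replicate number as a block and each array left out. The number of arrays limits the precision.

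Same-numbered arrays of different stages did not deviate together, with a mean correlation of 0.0126 over 40 pairs.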

Additional observations from a re-analysis of the deposited data

Results flagged for a closer look

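In 21 of the 250 stage levels examined, 1 array lay apart from the other 3 by more than Dixon's 95% critical value for 4 arrays. Chance alone marks about 1 in 20 groups.

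In oocytes, Eef1e1 read 1016.6 on array 2, below the others at 1126.5 to 1141, and Eif3l read 945.4 on array 4, above 685.7 to 694.7. Oocyte array 3 was the outlying one for 4 genes. On it Eif1b read 1656 against 2150.7 to 2227.6, Eif2s3x 401.3 against 325.6 to 329.5, Eif2s3y 3.5 against 0.6 to 0.8 and Eif4g3 419.8 against 320.3 to 334.

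At the 1-cell stage, array 1 gave the outlying values of Eef1akmt1, 54.7 against 3.7 to 6.8, and of Eif2b1, 2380.8 against 3627.2 to 3879.6. Array 3 read 253.7 for Eif3k, above 147.3 to 160.4.

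At the 2-cell stage, Eif2ak1 read 172.8 on array 1, above 142 to 145.4, and Eif2b1 read 1061.9 on array 2, below 1238.5 to 1265.7. Array 4 read 1212.3 for Eif4a1, against 886.6 to 912.6, and 217.2 for Eif4g3, against 161.1 to 169.3.

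At the 8-cell stage all 3 outlying values were on array 4. They were Eif1a at 315.3, below 450.1 to 471.5, Eif2ak4 at 24.6, above 5.4 to 8.6, and Eif2b4 at 658.6, above 353.9 to 377.1.

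In blastocysts, array 4 read 166.9 for Eef1a2, above 90.3 to 101.3, and 111.5 for Eif4b, below 212.1 to 222.8. Array 2 read 436.4 for Eif2b4, below 603.8 to 617.4, and 55.4 for the Y-linked Eif2s3y, below 110.9 to 114.2. Array 3 read 2493.3 for Eif3h, above 1572.4 to 1648.7.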

How the results depend on the processing

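Of the 163 called changes of members, every one kept its direction under another filter, pseudocount, trend setting, choice of stages, the block and each array left out, where 0 to 4 lost their call under each alternative other than leaving out arrays, and the stricter filter left 1 untested. Leaving out 1 array ended 15 of the 163 calls, which are named with their results, and moved 3 by over 1.5 times: Eef1e1 and Eif6 from oocyte to 1-cell stage without 1-cell array 1 (-0.42 and -0.35) and Eif4b from the 1-cell to the 2-cell stage without 1-cell array 2 (0.45). Median centring ended 13 calls and reversed 0. Quantile normalization ended 9 and reversed 5: log2 changes became -0.56 for Eif4g2 and -0.077 for Eif5a from the 2-cell to the 8-cell stage, and 0.29 for Eef1a1, 0.019 for Eif2s2 and 0.10 for Eif5a from the 8-cell stage to the blastocyst.

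Scaling to the hybridization controls kept 111 calls, ended 28 and reversed 24. From oocyte to 1-cell stage the reversed log2 changes were -0.20 for Eef2k, -0.029 for Eif2ak4, -0.42 for Eif2b1, -0.44 for Eif3e, -0.10 for Eif3i, -0.0016 for Eif4a2, -0.15 for Eif4e3, -0.42 for Eif4g2, -0.23 for Eif5 and -0.15 for Eif5a. From the 2-cell to the 8-cell stage they were -0.066 for Eif4e2 and -0.11 for Eif4g2. From the 8-cell stage to the blastocyst they were 0.64 for Eef1a1, 0.14 for Eef1akmt1, 0.20 for Eif2ak1, 0.073 for Eif2ak2, 0.15 for Eif2b1, 0.50 for Eif2b2, 0.46 for Eif2s2, 0.21 for Eif3a, 0.43 for Eif3h, 0.11 for Eif5, 0.69 for Eif5a and 0.44 for Eif5b. The counts under this scaling were 0 rises and 36 falls to the 1-cell stage, 7 falls to the 2-cell stage, 15 rises to the 8-cell stage, and 30 rises and 1 fall to the blastocyst. All genes moved the same way: of the 10257, 5001 were called to the 1-cell stage, 0.34% of them as rises. To the 2-cell stage 3385 were called (62.6% rises), to the 8-cell stage 4093 (19.7%) and to the blastocyst 4893 (95.8%). Median centring gave 10 falls of members to the blastocyst, where 4062 of all genes were called, 62.6% of them as rises. The 0 rises to the 1-cell stage are counts in limma at the adjusted threshold. The cause was not tested beyond the shift of the median of all genes given with the counts.

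Leaving out 1 array gave 10 to 11 rises and 19 to 21 falls to the 1-cell stage, 21 to 23 and 13 to 14 to the 2-cell stage, 26 to 28 and 6 to 7 to the 8-cell stage, 4 to 6 and 14 to 17 to the blastocyst, and 26 and 13 to 15 from oocyte to blastocyst. Taking the probe set with the lowest adjusted p for each gene gave 15 and 21, 26 and 15, 34 and 7, 5 and 24, and 29 and 16. This choice can only add called genes, among the 29 with several tested probe sets. The shares of all genes given above were not made this way and do not compare with these counts.

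The replicate numbers of the titles did not pair the arrays: correlations of deviations between same-numbered arrays ran from -0.16 to 0.178, and those between other numbers from -0.205 to 0.274 over 120 pairs. With the replicate number as a block, 24 members rose to the 2-cell stage in place of 23, the other counts were equal, and 1 of the 163 calls ended, the fall of Eef1a1 to the blastocyst (-0.46, adjusted p = 0.0526 in limma).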

Other observations

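Outside the comparisons stood 6 probe sets that the annotation gives to several genes, a member among them. The probe set shared by Gm4027, BB287469 and Eif1a read 22.8, 33, 27.7 and 65.1 at the 1-cell stage, 4784.9, 5072.7, 4611.7 and 4141.5 on the 2-cell arrays and 69.1, 57.8, 84.6 and 127.6 on the 8-cell arrays. It changed by 6.63 ± 0.25 and then by -5.63 ± 0.25 on the log2 scale, with a mean of 43.8 in blastocysts, while both probe sets named Eif1a alone were higher at the 8-cell than at the 2-cell stage. It does not show which of the 3 genes gave the signal.

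The 3 probe sets shared by Eif3j1 and Eif3j2, copies of a loosely held eIF3 subunit, rose to the 2-cell stage together. The one with the largest change went from 146 ± 45.8 to 1194 ± 98.3 (SD, n = 4) and then to 468 ± 115 at the 8-cell stage. The others changed by 1.25 ± 0.19 and 2.33 ± 0.15 at the first of these steps.

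The probe set shared by Eef1g, the gamma subunit of elongation factor 1, and Gm29753 read 293 ± 71.8 in oocytes, 79.2 ± 33.8 at the 1-cell stage, 363 ± 66 on the 2-cell arrays and 3863 ± 476 on the 8-cell arrays. That shared by Eif4a3, the helicase of the exon junction complex, and Gm5576 read 1287 ± 212, 558 ± 22.7, 2039 ± 111 and 2036 ± 323 at the same stages.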
